A study of Mus musculus with 12 samples.

Results

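The clustered protocadherins are cell adhesion proteins encoded by the Pcdha, Pcdhb and Pcdhg gene clusters, which lie one after the other on mouse chromosome 18. Probes were taken as members when the array's gene name was a numbered or C-type Pcdha gene, a numbered Pcdhb gene or a Pcdhga, Pcdhgb or Pcdhgc gene. This gave 38 of 55681 non-control probes, which carry 35 gene names. A RefSeq table (GRCm38.p6) lists 14 Pcdha, 22 Pcdhb and 22 Pcdhg genes, of which 7, 22 and 6 had a probe named for them.

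Each neuron is known to switch on a small, largely random set of these genes. Promoter choice depends on CTCF and cohesin, which fold the promoters onto distant enhancers. In Pcdha and Pcdhg a variable first exon is spliced to constant exons that all isoforms of the cluster share, whereas each Pcdhb gene is a single coding exon. The isoforms bind like isoforms on the facing membrane, which lets a neuron tell its own branches from those of others. C-type isoforms (Pcdhac1, Pcdhac2, Pcdhgc3, Pcdhgc4 and Pcdhgc5) are expressed more uniformly across neurons, and Pcdhac2 is known for the spacing of serotonergic axons.

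Each 1-colour Agilent array measured total RNA from the hippocampus of 1 adult male wild-type mouse kept in continuous darkness. The groups were circadian time (CT) 0, 6, 12 and 18, with 3 mice each. CT18 was sampled after 30 h of darkness, CT0 after 36 h, CT6 after 42 h and CT12 after 48 h, so CT18 was the earliest sample in real time. The study asked which hippocampal genes follow the circadian clock when light is absent. A level below is the log2 processed signal minus the 75th percentile of the same array, called the scaled log2 signal. Levels in a group are listed by mouse number: 1, 2 and 3 at CT0, 5, 6 and 7 at CT6, 10, 11 and 12 at CT12, and 14, 15 and 16 at CT18. In whole tissue, fewer cells that express a gene and less RNA per cell cannot be told apart.

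CT12 mouse 11 stood apart from the other libraries. Its correlation with them over all probes tested was 0.946 to 0.965, whereas the other 11 arrays correlated at 0.982 or more with each other. In mouse 11 the excitatory neuron markers lay a median of 4.21 log2 units below their means over the 12 arrays (deviation -4.21, against -0.20 to 0.59 in the other 11), and the cerebellum markers lay 3.98 above theirs, with 8 of 8 tested above all other arrays. In CT0 mouse 3, 77.1% of spots were well above background, against 59.3% to 67.1% on the other arrays. The 11322 dimmest tested probes lay a median of 0.36 higher there than their own means. Results below are given with and without mouse 11 where it moves them.

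Most members were measurable in hippocampus. Of the 38 probes, 32 were well above background on all 12 arrays, and 34 were tested because all 3 arrays of at least 1 time passed that mark: 8 for Pcdha, 20 for Pcdhb and 6 for Pcdhg. Pcdhb5 and Pcdhga10 passed on 11 arrays each. The 4 members left untested were Pcdhac1 (above background on 5 arrays), Pcdhb1 (2 arrays), Pcdhb11 (5 arrays) and Pcdhga5 (4 arrays).

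**Figure D1:**
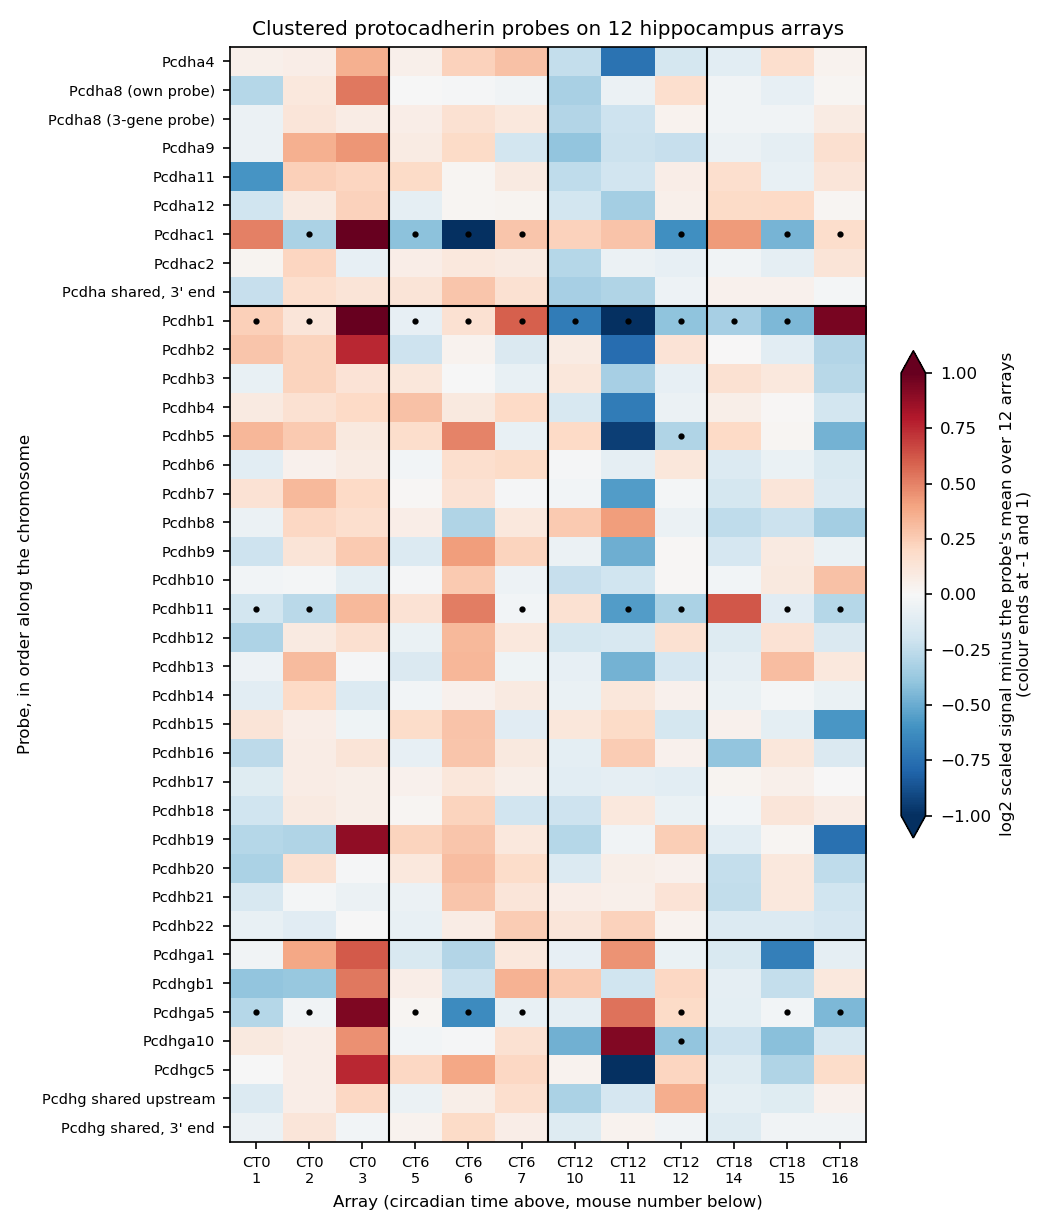
Each row is 1 of the 38 probes in order along the chromosome and each column 1 array; colour is the scaled log2 signal minus the probe's mean over 12 arrays, and a dot marks a value not well above background. Dots gather on Pcdhac1, Pcdhb1, Pcdhb11 and Pcdhga5, and the column of CT12 mouse 11 is dark blue at Pcdha4, among the early Pcdhb genes and at Pcdhgc5.

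Some probes report on several isoforms. The probe at chr18:37347235-37347294 (mm9) is named Pcdhac2 but lists Pcdha4, Pcdha9, Pcdhac1 and Pcdhac2, and it lies downstream of every variable exon probe of the cluster, so it is called the shared Pcdha probe here. A probe at chr18:37154205-37154264 is named Pcdha8 and lists Pcdha4, Pcdha7 and Pcdha8. It lies between the other Pcdha8 probe and the Pcdha9 probe, upstream of the shared Pcdha probe. Both probes named Pcdhga9 list several Pcdhg genes; the upstream one lies at chr18:37999725-37999784 and the 3′ one at chr18:38001378-38001437. The array's accession field held at most 4 entries, so the sharing may be wider than listed. The other 34 probes list 1 member each.

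No member was called as varying over circadian time. In limma's moderated F test over the 4 times, 0 of 34 members had an adjusted p (Benjamini-Hochberg over all probes) under 0.05, against 29 of 34039 probes, or 0.0852%. Before adjustment, 5 members had p under 0.05 in that test, against 10.6% of all probes. For a 24-hour cosine the counts were also 0 called and 5 before adjustment, against 0.0411% of probes called and 9.83% before adjustment. The smallest adjusted p among members was 0.378 in the F test and 0.369 in the cosine test. Leaving out mouse 11 gave 0 called members in both tests, with 3 and 4 before adjustment, against 0.173% and 0.19% of all probes called and 11.7% and 12% before adjustment.

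The 6 pairs of times gave the same count. Limma called 0 members for CT12 minus CT0 (0.0441% of all probes called), CT18 minus CT6 (0.0793%), CT6 minus CT0 (0%), CT12 minus CT6 (0.0176%), CT18 minus CT12 (0.17%) and CT18 minus CT0 (0%). Before adjustment, 5, 3, 1, 4, 3 and 3 members had p under 0.05 in those pairs. The shares of all probes were 12%, 8.18%, 2.61%, 11.6%, 16.3% and 4.02%. Without mouse 11, limma called 0 members in each pair, against 7, 337, 0, 6, 100 and 1 of 34165 probes in that order. For CT18 minus CT6 and CT18 minus CT12 the counts with mouse 11 were 27 and 58 of 34039 probes. Without it, 4, 5, 1, 5, 1 and 5 members had p under 0.05 before adjustment, against 2860, 4544, 1726, 2636, 4500 and 2361 probes. Several of these pairs share arrays and are not independent of each other.

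The intervals of the differences show how large a change the data could still hold. For CT12 minus CT0, the 95% interval lay within 1 log2 unit of 0 for 31 of 34 members, and within a 1.5-fold change for 20. For CT18 minus CT6, the counts were 32 and 24. The widest interval belonged to Pcdhgc5, at -1.67 to 0.20 for CT12 minus CT0. The median SD within a time was 0.189 over the 34 members and 0.225 over all probes, and without mouse 11 the medians were 0.167 and 0.174.

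**Figure D2:**
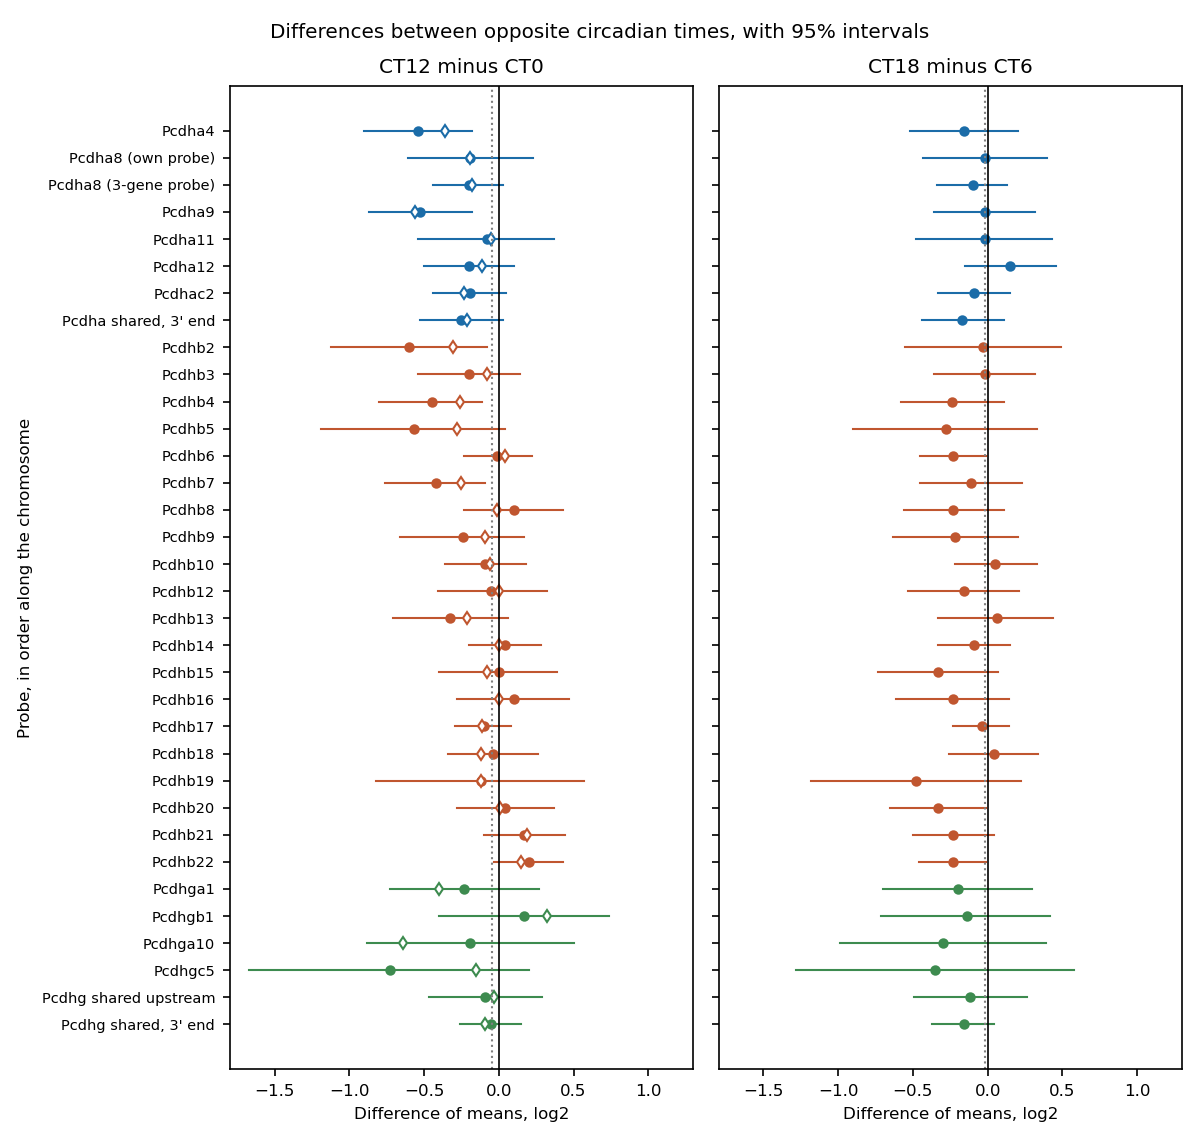
Differences of group means (log2, filled circles) with 95% intervals for the 34 tested probes, in order along the chromosome, for CT12 minus CT0 (left) and CT18 minus CT6 (right); open diamonds are CT12 minus CT0 without mouse 11, blue is Pcdha, orange Pcdhb and green Pcdhg, and the dotted line is the median of all probes. On the left all 8 Pcdha points lie below 0, and Pcdha4, Pcdha9, Pcdhb2, Pcdhb4 and Pcdhb7 have intervals that do not reach 0.

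The Pcdha cluster had its lowest mean at CT12 in each of its 8 tested probes, with or without mouse 11. The share of all probes with their lowest mean at CT12 was not counted. Some of the 8 list several Pcdha genes, so they are not separate readings. For CT12 minus CT6 the differences were -0.57 to -0.06 with a median of -0.25, against a median of -0.032 over all probes, of which 55.6% were below 0. All 8 were below 0 under each of the 5 scalings tried, and the medians within slides 1, 2 and 3 were -0.36, -0.36 and -0.06. For CT12 minus CT0 the differences were -0.54 to -0.08 with a median of -0.20, against -0.045 over all probes, of which 57.6% were below 0. For CT12 minus CT0 the slide medians were -0.17, -0.43 and -0.18. Here scaling mattered: with each array centred on its median, the median of all probes moved to 0.153, that of the 8 Pcdha probes to -0.002, and 4 of the 8 were below 0. Without CT0 mouse 1 the Pcdha median was -0.37. Circadian time and array position on the slide cannot be told apart.

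The low CT12 values were not equal among the 3 mice. Over the 8 Pcdha probes the median deviation from each probe's mean was -0.29 in mouse 10, -0.21 in mouse 11 and -0.01 in mouse 12. Mouse 10 held the lowest of the 12 values for 5 of the 8 probes and mouse 11 for 2. At CT0 the same medians were -0.13, 0.14 and 0.23, and at CT6 they were 0.07, 0.13 and 0.09. Excitatory neuron markers deviated by -0.20, -4.21 and 0.51 in mice 10, 11 and 12, and choroid plexus markers by 3.46, 1.84 and -2.22. Choroid plexus markers were also high in CT0 mouse 1 (3.81), CT6 mouse 7 (2.72) and CT18 mouse 14 (2.69). On the other arrays outside CT12 they lay between -2.35 and -1.87. Thalamus markers deviated by 1.51, 0.61 and -0.08 in mice 10, 11 and 12, against -0.47 to -0.02 outside CT12. For oligodendrocyte markers the values were 0.31, 0.77 and 0.18, against -0.31 to 0.11. The part of these shifts in tissue content in the Pcdha values was not tested.

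**Figure D3:**
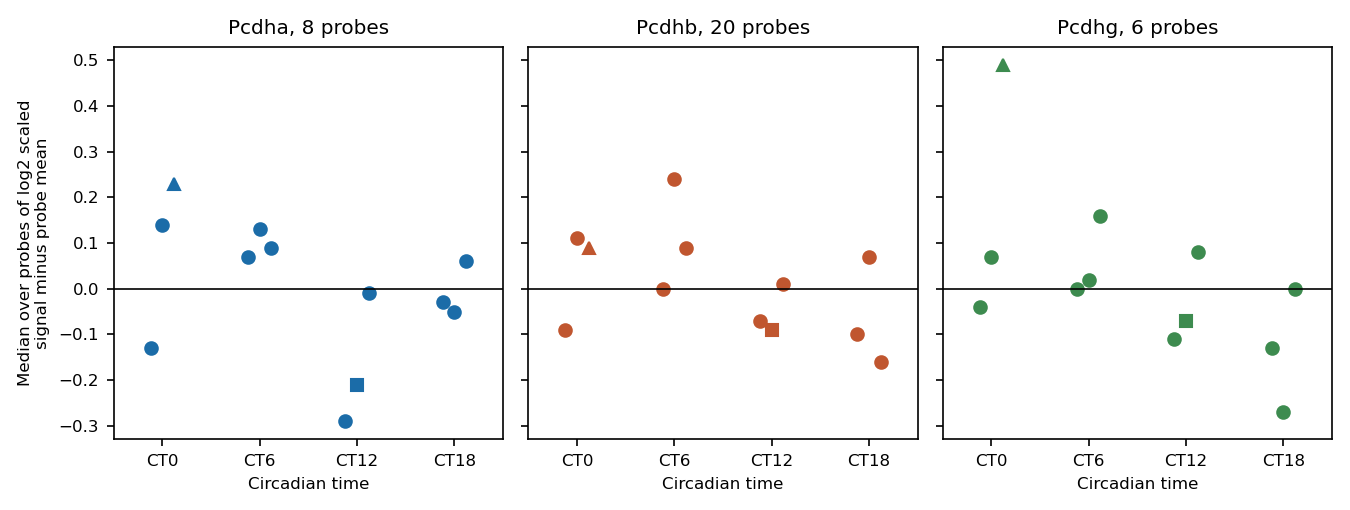
Median over the tested probes of each cluster of the scaled log2 signal minus the probe's mean, 1 symbol per array by circadian time; squares are CT12 mouse 11 and triangles CT0 mouse 3. Pcdha medians at CT12 are -0.29, -0.21 and -0.01, and the triangle of the Pcdhg panel lies at 0.49.

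Pcdha4, an alternate isoform near the start of the cluster (chr18:37114742-37114801), had the largest range of means in Pcdha. Its levels were -1.63, -1.62 and -1.33 at CT0, -1.63, -1.45 and -1.39 at CT6, -1.92, -2.42 and -1.86 at CT12 and -1.79, -1.52 and -1.65 at CT18. Every CT12 value lay below the other 9, and mouse 11 was the lowest of all. The means were -1.53 ± 0.17, -1.49 ± 0.13, -2.06 ± 0.31 and -1.65 ± 0.13 in that order of times (SD, n = 3). CT12 minus CT6 was -0.57 (SE 0.16), with limma's adjusted p = 0.375. Without mouse 11 the difference was -0.40. Over the 4 times, limma's adjusted p was 0.378 (0.0187 before adjustment).

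Pcdha9, another alternate isoform (chr18:37159948-37160007), showed the same separation. Its levels were -1.38, -0.97 and -0.88 at CT0, -1.24, -1.13 and -1.51 at CT6, -1.72, -1.54 and -1.55 at CT12 and -1.38, -1.41 and -1.16 at CT18. The CT12 values again lay below the other 9, with mouse 7 at CT6 the next lowest. CT12 minus CT0 was -0.53 (SE 0.15, 95% interval -0.87 to -0.18), with limma's adjusted p = 0.338, and it was -0.56 without mouse 11. Pcdha4 and Pcdha9 were the only 2 of the 34 members with all CT12 values below all others in this scaling. The share of all probes with that pattern was not counted. For single pairs, 8.59% of all probes were lower without overlap for CT12 minus CT0 and 10.5% for CT12 minus CT6. Under each of the other 4 scalings Pcdha9 values at CT12 and CT6 overlapped. Pcdha4 values at CT12 overlapped those of CT0 with each array centred on its median, and those of CT18 under normexp correction.

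The shared Pcdha probe reads transcripts from several promoters at once. Its levels were 2.88, 3.28 and 3.24 at CT0, 3.24, 3.39 and 3.26 at CT6, 2.78, 2.81 and 3.06 at CT12 and 3.15, 3.15 and 3.09 at CT18. The CT12 and CT6 values did not overlap, while CT0 mouse 1 fell inside the CT12 range. CT12 minus CT6 was -0.41 (SE 0.12, 95% interval -0.69 to -0.14), with limma's adjusted p = 0.382, and -0.38 without mouse 11. CT12 minus CT0 was -0.25 (SE 0.12).

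The Pcdha8 probe that lists 3 genes went the same way at smaller size. It read 1.20, 1.38 and 1.33 at CT0, 1.32, 1.41 and 1.36 at CT6, 0.96, 1.05 and 1.29 at CT12 and 1.22, 1.22 and 1.34 at CT18. The CT12 and CT6 values did not overlap, and CT12 minus CT6 was -0.27 (SE 0.10, limma's adjusted p = 0.42). The probe that lists Pcdha8 alone differed by -0.06 (SE 0.19) for CT12 minus CT6, with CT12 levels of -2.70, -2.44 and -2.21 against CT6 levels of -2.38, -2.39 and -2.41. Pcdha12 was lowest at CT12 (mean -0.88 ± 0.20, n = 3) and highest at CT18 (mean -0.58 ± 0.10, n = 3). Its CT18 minus CT12 difference was 0.30 (SE 0.14, limma's adjusted p = 0.314), and 0.20 without mouse 11 (limma's adjusted p = 0.603). Pcdha11 means spanned 0.22.

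Of the C-type genes of Pcdha, Pcdhac2 was detected on every array and Pcdhac1 was not. Pcdhac2 (chr18:37305687-37305745) had levels of -1.23, -1.04 and -1.34 at CT0, -1.19, -1.15 and -1.17 at CT6, -1.54, -1.32 and -1.34 at CT12 and -1.29, -1.35 and -1.13 at CT18. The CT12 values lay below the CT6 values and overlapped those of CT0 and CT18. CT12 minus CT6 was -0.23 (SE 0.11, 95% interval -0.47 to 0.01, limma's adjusted p = 0.436). Pcdhac1 read -4.88, -5.70 and -3.56 at CT0, -5.80, -7.31 and -5.11 at CT6, -5.16, -5.10 and -6.00 at CT12 and -4.96, -5.85 and -5.21 at CT18. It was well above background in 2, 0, 2 and 1 of the 3 arrays at those times, so no difference is given. Mouse 3, the array with the most spots above background, held its highest value.

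**Figure D4:**
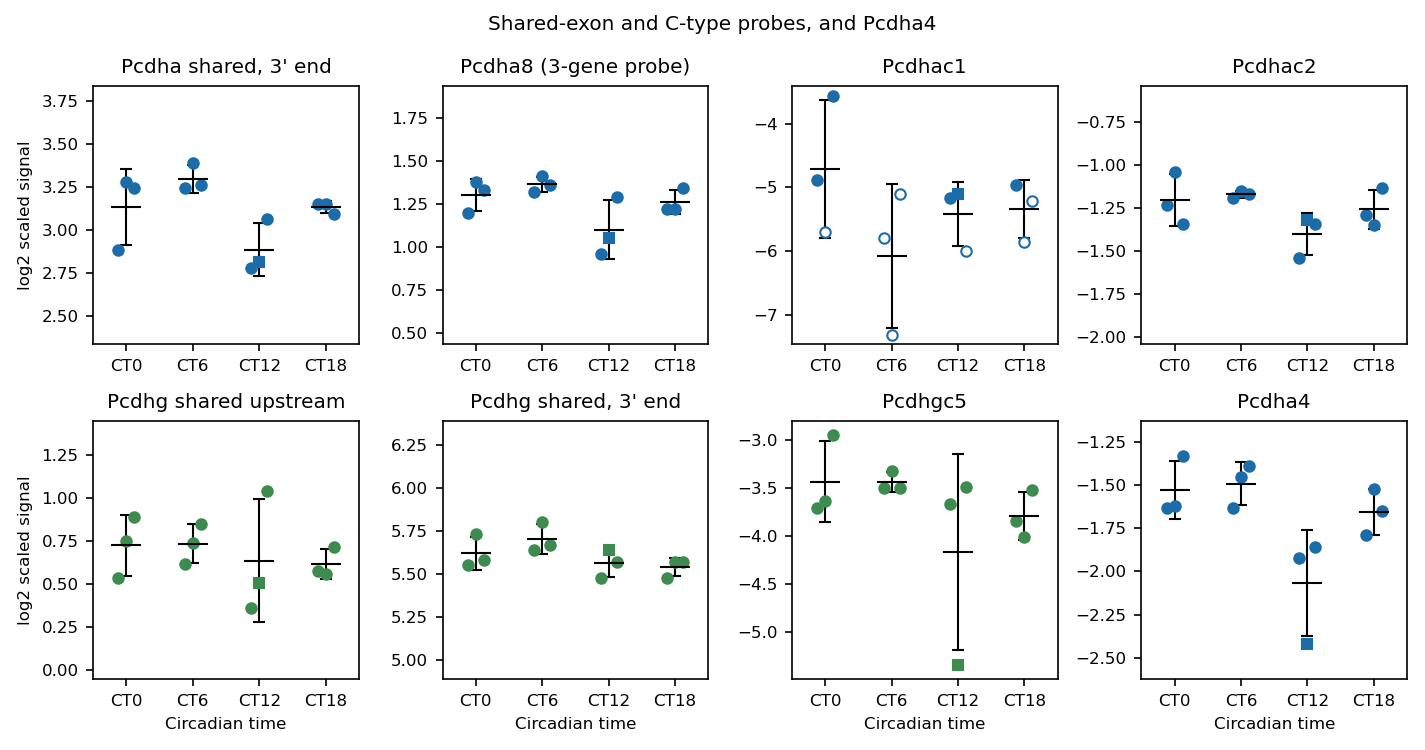
Scaled log2 signal by circadian time for the probes that list several genes, the C-type genes with a probe, and Pcdha4. Points are arrays, horizontal bars are means and whiskers SD over 3 mice. Squares are CT12 mouse 11, and open points are not well above background. The 3 CT12 values of Pcdha4 lie below the other 9, and the square of Pcdhgc5 at -5.34 lies apart from the other CT12 values at -3.67 and -3.49.

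The Pcdhb genes, which are cell surface isoforms with no constant region, gave lower means at CT18 than at CT6 in 17 of 20 tested genes. The differences ran from -0.48 to 0.06 with a median of -0.22, against -0.016 over all probes, of which 53.8% were below 0. Under the other 4 scalings the count below 0 was 14 to 18. Within slides 1, 2 and 3 the medians were -0.06, -0.16 and -0.27. Without CT6 mouse 6 the median was -0.11, and that mouse held the highest of the 12 values for 10 of the 20 genes. The smallest p values came from Pcdhb6, Pcdhb20 and Pcdhb22, at 0.0428, 0.0452 and 0.0453 before adjustment and 0.581, 0.59 and 0.59 after limma's adjustment. For CT12 minus CT0 the Pcdhb median was -0.07, with 14 of 20 below 0, and under the other scalings 7 to 14 were below 0. That median was 0.005 under quantile normalization, 0.131 with each array centred on its median and 0.012 in the deposited table.

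Pcdhb20 and Pcdhb22 illustrate how small the CT18 minus CT6 differences were. Pcdhb20 had levels of 0.57, 0.91 and 0.55 at CT18 against 0.91, 1.11 and 0.99 at CT6. The mouse 15 value equalled the lowest CT6 value at this rounding, and the difference was -0.33 (SE 0.14). Pcdhb22 had levels of -1.97, -1.97 and -2.0 at CT18 against -1.91, -1.76 and -1.58 at CT6. Those groups did not overlap, as in 12.1% of all probes lower for that pair, and the 3 CT18 values of Pcdhb22 lay below the other 9. The share of all probes with all CT18 values lowest was not counted. The difference was -0.23 (SE 0.10).

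Pcdhb4 was the Pcdhb gene with the smallest F test p, 0.0338 before adjustment and 0.428 after it. Its levels were -1.75, -1.69 and -1.64 at CT0, -1.55, -1.74 and -1.64 at CT6, -2.0, -2.54 and -1.90 at CT12 and -1.78, -1.83 and -2.02 at CT18. The CT12 values lay below all CT0 and CT6 values and overlapped CT18. CT12 minus CT6 was -0.51 (SE 0.16, limma's adjusted p = 0.382), and -0.31 without mouse 11.

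Pcdhb8 ran the other way. Its levels were -4.90, -4.63 and -4.67 at CT0, -4.77, -5.14 and -4.73 at CT6, -4.58, -4.42 and -4.90 at CT12 and -5.09, -5.05 and -5.18 at CT18. The CT18 values lay below those of CT12 and CT0, and only mouse 6 at CT6 reached them. CT18 minus CT12 was -0.47 (SE 0.15, 95% interval -0.81 to -0.14, limma's adjusted p = 0.191), the smallest adjusted p of any member in any of the 8 tests. Without mouse 11 it was -0.37, with adjusted p = 0.337. Over the 22 alternatives the adjusted p ran between 0.0527 and 0.728. Under normexp correction CT18 minus CT12 was -0.20. CT12 minus CT0 was 0.10 as reported and 0.81 under quantile normalization. The CT18 minus CT0 difference of Pcdhb8 changed sign under quantile normalization and in the deposited table.

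Pcdhb2, Pcdhb5, Pcdhb7 and Pcdhb19 completed the 6 Pcdhb genes with the widest range of means. Pcdhb2 had levels of -4.32, -5.17 and -4.27 at CT12 against -4.13, -4.18 and -3.65 at CT0. The groups did not overlap, but the difference of -0.60 (SE 0.23) was -0.31 without mouse 11, and CT0 mouse 3 was the highest array. Pcdhb7 had levels of -0.29, -0.82 and -0.28 at CT12 against -0.12, 0.06 and -0.06 at CT0, and its difference of -0.42 (SE 0.15) was -0.25 without mouse 11. Limma's adjusted p was 0.399 for Pcdhb2 and 0.388 for Pcdhb7.

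Pcdhb5 and Pcdhb19 each had an extreme value in 1 array. Pcdhb5 read -4.44, -5.58 and -4.94 at CT12 against -4.31, -4.38 and -4.54 at CT0. After mouse 11 its next lowest array was CT18 mouse 16, at -5.11. Pcdhb5 was well above background on 2 of the 3 CT12 arrays. Its CT12 minus CT0 difference of -0.57 (SE 0.28) was -0.28 without mouse 11, and above 0 under quantile normalization and in the deposited table. Pcdhb19 read -4.42, -4.44 and -3.25 at CT0, with mouse 3 the highest of the 12 arrays, and its CT18 minus CT6 difference was -0.48 (SE 0.31, limma's adjusted p = 0.847). The remaining 14 tested Pcdhb genes had ranges of means between 0.09 (Pcdhb14) and 0.35 (Pcdhb9 and Pcdhb13).

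Pcdhb3 gives a measure of the technical spread, since its probe was spotted 10 times per array. The SD between its spots within an array was 0.065 to 0.114. Its levels were -1.35, -1.05 and -1.14 at CT0, -1.16, -1.28 and -1.35 at CT6, -1.16, -1.61 and -1.36 at CT12 and -1.12, -1.17 and -1.55 at CT18. The groups overlapped at every pair of times, and the SD between mice of a time was 0.10 to 0.23.

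Pcdhb1 and Pcdhb11 were near background. Pcdhb1 was well above background on CT0 mouse 3 and CT18 mouse 16, at -4.17 and -4.95, and read between -7.73 and -5.30 elsewhere. Pcdhb11 read between -5.65 and -4.47 and was above background on 5 arrays.

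In Pcdhg the shared 3′ probe, in exons that isoforms of the cluster have in common, gave closely spaced levels. Its levels were 5.55, 5.73 and 5.58 at CT0, 5.64, 5.80 and 5.67 at CT6, 5.48, 5.64 and 5.57 at CT12 and 5.48, 5.57 and 5.57 at CT18. The CT18 values lay below the CT6 values, by -0.16 (SE 0.09, 95% interval -0.37 to 0.04, limma's adjusted p = 0.771), and the CT12 minus CT0 interval was -0.26 to 0.15. The upstream shared probe had levels of 0.36, 0.51 and 1.04 at CT12 against 0.54, 0.75 and 0.89 at CT0, with overlap, and differed by -0.09 (SE 0.17).

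All 6 tested Pcdhg probes had lower means at CT18 than at CT6, under each of the 5 scalings. The differences were -0.35 to -0.12 with a median of -0.18, and 0 of 6 had p under 0.05 before adjustment by limma. With each array centred on its median the Pcdhg median was -0.09, against 0.069 for all probes. Without CT6 mouse 6 it was -0.29, and without CT18 mouse 16 it was -0.27. For CT12 minus CT0 the Pcdhg median was -0.14, and it was 0.02 without CT12 mouse 10. That sign also turned with scaling. The Pcdhg median was 0.008 under quantile normalization, 0.060 with each array centred on its median and 0.009 in the deposited table, with 3, 2 and 3 of the 6 probes below 0, against 5 as reported.

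Pcdhgc5, the only C-type gene of Pcdhg with a probe (chr18:37979245-37979304), had the widest range of means of the 34 tested members. Its levels were -3.71, -3.64 and -2.95 at CT0, -3.50, -3.32 and -3.50 at CT6, -3.67, -5.34 and -3.49 at CT12 and -3.84, -4.01 and -3.52 at CT18. Mouse 11 lay far below every other array, and CT0 mouse 3 was the highest. CT12 minus CT0 was -0.73 (SE 0.42, limma's adjusted p = 0.474) and -0.15 without mouse 11.

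Pcdhga10, an A-type isoform, was shifted the other way in the same library. Its levels were -4.53, -4.56 and -4.17 at CT0, -4.66, -4.64 and -4.48 at CT6, -5.11, -3.70 and -5.02 at CT12 and -4.84, -5.05 and -4.79 at CT18. Mouse 11 held the highest value of all 12 arrays, whereas mice 10 and 12 lay below every CT0 and CT6 value. CT12 minus CT0 was -0.19 (SE 0.31) with mouse 11 and -0.64 without it, and the F test p before adjustment was 0.522 with it and 0.00367 without it (limma's adjusted p = 0.166). With mouse 11 kept, the sign turned with scaling. The difference was 0.01 with each array centred on its median and -0.02 under normexp correction. It was 0.36 under quantile normalization and 0.37 in the deposited table. The fit without mouse 11 was run in the reported scaling only. The CT12 mouse 12 value was not well above background.

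Pcdhga1 and Pcdhgb1 were dim and variable. Pcdhga1 read -3.99, -3.57 and -3.34 at CT0, -4.11, -4.25 and -3.85 at CT6, -4.04, -3.51 and -4.02 at CT12 and -4.11, -4.64 and -4.05 at CT18. Its CT18 values lay below those of CT0, and limma's F test p was 0.0841 before adjustment. Pcdhgb1 means spanned 0.17, with its highest array at CT0 mouse 3 (-4.00). Pcdhga5 read -4.21 in CT0 mouse 3 and -5.77 to -4.60 on the other arrays.

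Counts of non-overlapping groups were set against all probes. For CT12 minus CT0, 6 members were lower without overlap (all probes 8.59%) and 2 were higher (4.68%). For CT18 minus CT6, 8 were lower (12.1%) and 0 higher (11.1%). For CT12 minus CT6, 9 were lower (10.5%) and 0 higher (5.75%), and 5 of those 9 were Pcdha probes. For CT18 minus CT12, 3 were lower (7.7%) and 4 higher (11.1%), and 3 of those 4 were Pcdha probes. Without mouse 11 the CT18 minus CT12 lower count was 6, against 11.3% of all probes. For CT18 minus CT0, 7 were lower (5.54%) and 0 higher (5.63%). This count moved with scaling and with CT0 mouse 3: it was 2 with each array centred on its median (1.29% of all probes), 2 under quantile normalization (3.56%), 2 in the deposited table (3.37%), 3 under normexp correction (5.63%), and 9 without CT0 mouse 3 (8.3%). For CT6 minus CT0, 2 were lower (5.4%) and 0 higher (5.72%). With each array centred on its median, the lower counts for CT12 minus CT0, CT18 minus CT6 and CT12 minus CT6 were 1, 1 and 3, against 1.93%, 4.49% and 6.3% of all probes.

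CT12 mouse 11 moved some members far and left others in place. For 12 of 34 members (35.3%) its value lay outside the range of the other 11 arrays, against 54.9% of all probes. It was below that range for 10 members, against 31.9% of all probes, and above it for 2, against 23%. The deviations from the mean of the other 11 were -0.81 for Pcdha4, -0.37 for Pcdha12, -1.03 for Pcdhb5, -0.83 for Pcdhb2, -0.76 for Pcdhb4, -0.61 for Pcdhb7, -0.53 for Pcdhb9, -0.51 for Pcdhb13, -0.37 for Pcdhb3 and -1.78 for Pcdhgc5. Pcdhb8 and Pcdhga10 lay above, by 0.45 and 1.01. The shared probes deviated by -0.32 (Pcdha), -0.18 (Pcdhg upstream) and 0.04 (Pcdhg 3′), each within the range of the other arrays. Pcdhb14 to Pcdhb22 were also within that range. The median absolute deviation over the 34 members was 0.23, smaller than that of the shared Pcdha probe.

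**Figure D5:**
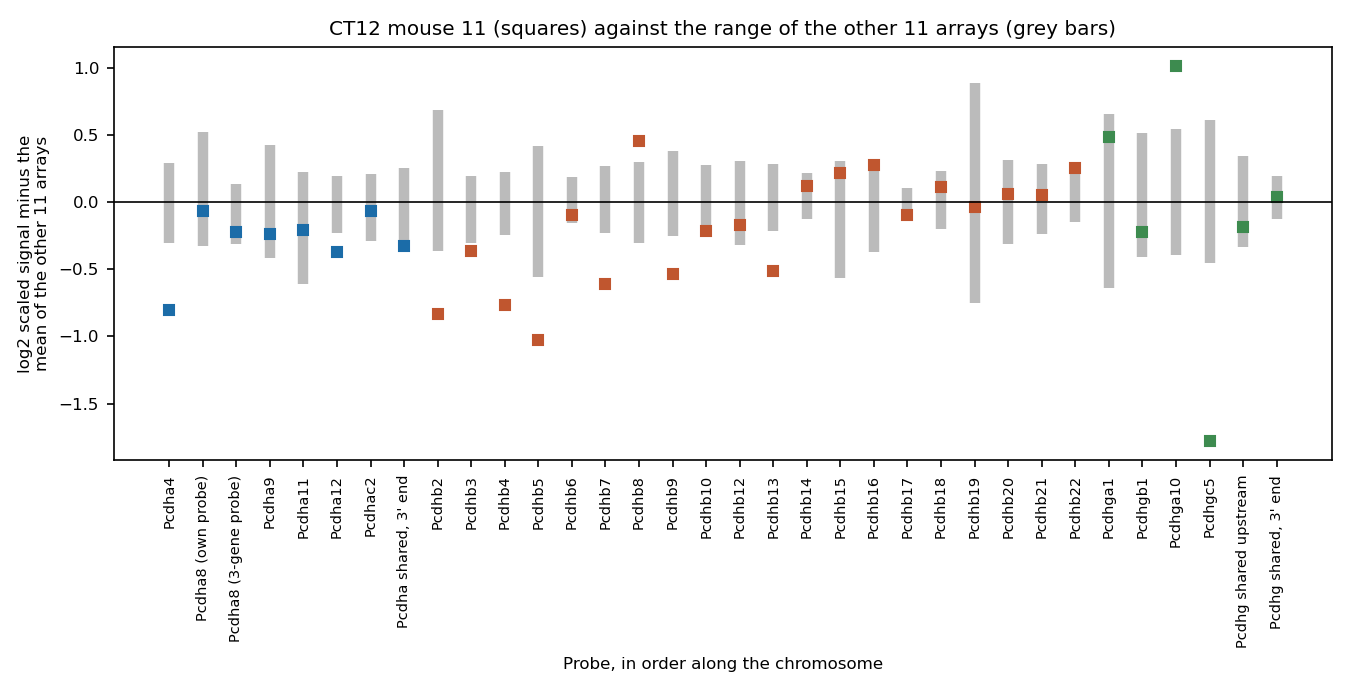
Scaled log2 signal of CT12 mouse 11 minus the mean of the other 11 arrays (squares) for the 34 tested probes in order along the chromosome, with the range of the other 11 arrays around their mean as grey bars; blue is Pcdha, orange Pcdhb and green Pcdhg. The squares lie below the bars at Pcdha4, at Pcdhb2 to Pcdhb5 and at Pcdhgc5 (-1.78), near 0 over the later Pcdhb genes, and above the bar at Pcdhga10 (1.01).

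Within Pcdhb the mouse 11 deviations tended to rise along the gene order, and those of the CT0 libraries tended to fall. The median was -0.51 over the 11 tested genes among Pcdhb2 to Pcdhb13, of which 10 were below 0, and 0.11 over the 9 genes Pcdhb14 to Pcdhb22. This split was chosen after the values were seen and has no test. Spearman's rho of the deviation with gene order was 0.68 over the 20 genes in mouse 11. It was -0.59, -0.61 and -0.47 in CT0 mice 1, 2 and 3, and between -0.42 and 0.27 in the remaining libraries. The genes of 1 library share their hybridisation, so these values describe the libraries only.

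Genes that act on or with the clusters were read from lists written from general knowledge. Of 17 regulators of promoter choice and chromatin (such as Ctcf, the cohesin subunits, Smchd1 and the DNA methyltransferases), 0 were called by limma's F test, with 0 at p under 0.05 before adjustment. The smallest p values were 0.0878 for Zfp143, a promoter-binding factor, 0.143 for Smchd1, a silencing protein, and 0.197 for Wapl, which releases cohesin. Ctcf read 1.60, 1.99 and 1.64 at CT12 against 1.62, 1.74 and 1.72 at CT0, a difference of 0.05, and -0.08 without mouse 11. The median over the 17 was 0.02 for CT12 minus CT0, -0.08 for that pair without mouse 11, and 0.02 for CT18 minus CT6.

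Of 19 signalling and processing partners, 0 were called and 1 had p under 0.05 before adjustment. That was Ptk2, the focal adhesion kinase that clustered protocadherins inhibit, which read 1.64, 1.12 and 1.99 at CT12 against 2.0, 2.16 and 2.14 at CT0. Its CT12 minus CT0 difference was -0.52, with limma's adjusted p = 0.379, and -0.29 without mouse 11, with adjusted p = 0.564. At CT18 Ptk2 read 2.3, 2.38 and 2.4, above all other arrays. Its CT18 minus CT12 difference was 0.78 (limma's adjusted p = 0.107), and 0.55 without mouse 11 (adjusted p = 0.0929). The related kinase Ptk2b was 5.75 log2 units lower in mouse 11 than the mean of the other 11 (deviation -5.75), and its CT12 minus CT0 difference was -2.14 (limma's adjusted p = 0.461) with mouse 11 and -0.31 without it (adjusted p = 0.63).

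Of 13 non-clustered protocadherins and related cadherins, 0 were called by limma's F test, with 2 at p under 0.05 before adjustment. Pcdh12, known from endothelial cells, was called lower for CT12 minus CT0. It read -4.39, -3.96 and -4.47 at CT12 against -2.73, -3.31 and -2.92 at CT0, without overlap. The difference was -1.29, with limma's adjusted p = 0.0465, and -1.44 without mouse 11, with adjusted p = 0.0403. Without mouse 11 limma's F test called Pcdh12 too, with adjusted p = 0.0432. Pcdh8, Pcdh19 and Pcdh20 deviated by -2.67, -2.08 and -2.76 in mouse 11, each more than any clustered member did.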

How the data were processed

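Agilent Feature Extraction 10.7.3.1 read the spots, per the file headers. Its processed signal, a deposited intensity from which the software had removed the background, was the starting value, and probe coordinates are on mm9. A second deposited table gives log2 values whose column medians are all 5.358, made by a normalization not given in the sources used here. The other deposited columns used were flags (0 or 1) for outlier spots and for spots well above background.

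Outlier spots were left out, spots of a probe were averaged, and 34039 probes were tested with limma 3.58.1 in R 4.3.3. One fit gave 4 time means, compared by a moderated F test, a 24-hour cosine and 6 pairs, each with Benjamini-Hochberg adjustment and a threshold of 0.05. The steps were tested on simulated data. For the number of arrays, 3 mice per time, precision is limited by the mice.

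The members and gene lists were chosen with earlier results of these data known. The rule for names took shared-exon and C-type probes, called members, up to 6 members per cluster with the widest range of means, up to 4 moved most in CT12 mouse 11, and the list genes called or with the 4 smallest p values. Others were named after their values were seen. Alternatives were quantile, median and normexp scaling, the deposited table, other filters, 1 probe per gene, other variance models, slide as a block, the 6 arrays of a pair and leaving out each array.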

Additional observations from a re-analysis of the deposited data

How the results depend on the processing

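No member was called under any alternative that was run: 22 for the 6 pairs, and 21 for the F and cosine tests, which the 6 arrays of a pair cannot give. Of the 34 members, 5 had 1 alternative fewer, because it left their probe out. Over these repeats the lowest adjusted p was 0.0527 (limma, Pcdhb8, CT18 minus CT12, without CT12 mouse 12). Over all probes the F test called between 0 and 139 under these alternatives, against 29 in the reported fit. Median centring of each array moved the median of all probes for CT12 minus CT0 to 0.153, and with it the Pcdha median to -0.002 and the Pcdhb median to 0.131. For CT18 minus CT6 it moved the Pcdha median to 0.028 and the Pcdhg median to -0.094, with all probes at 0.069. Measured against the median of all probes under the same setting, the Pcdha median for CT12 minus CT0 was -0.16 and lay between -0.30 and -0.02 over all settings. For CT18 minus CT6 the Pcdhb median was -0.21 (-0.26 to -0.09) and the Pcdhg median -0.16 (-0.26 to -0.10). Leaving out 1 array in turn gave a Pcdha median of -0.366 to -0.160 for CT12 minus CT0. For CT18 minus CT6 it gave -0.256 to -0.112 for Pcdhb and -0.286 to -0.132 for Pcdhg. The CT18 minus CT0 difference of Pcdhb8 was 0.41 under quantile normalization and 0.43 in the deposited table, opposite to the reported sign, and the cause was not tested. With slide as a block limma's F test called 0 members, with 5 at p under 0.05 before adjustment, against 4 and 4963 of 34039 probes. For the 24-hour cosine the counts were 0 and 8 members, against 11 and 4721 probes. In the 6 pairs, in the order used above, 6, 7, 1, 5, 5 and 4 members had p under 0.05 before adjustment. The counts over all probes were 5618, 3725, 1533, 4998, 6839 and 2216. Counts of groups without overlap were repeated under other scalings and without CT12 mouse 10, CT12 mouse 11 or CT0 mouse 3, alternatives chosen after the values were seen. For CT12 minus CT6 the lower count ran from 3 with each array centred on its median to 12 without CT12 mouse 10, against 9 as reported. The shares of all probes under those settings were 6.3%, 15.1% and 10.5%, so they moved with the count. No paired analysis was possible because the labels give the mice different numbers at each time, so no mouse is paired across times. The slide block above is the only blocked fit, since each slide held 1 array of each time. With 3 mice per time, signal near background limits Pcdhac1, Pcdhb1, Pcdhb11 and Pcdhga5, which had no test.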

Other observations

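A pair of array transcripts outside the name rule carry descriptions that point to the same clusters, and were picked for those descriptions. A transcript described as protocadherin alpha C1 was well above background on 8 arrays. It read -4.15, -4.44 and -4.75 at CT0, -4.63, -6.23 and -4.98 at CT6, -4.39, -7.42 and -4.88 at CT12 and -4.36, -5.93 and -5.02 at CT18. Its lowest value was in CT12 mouse 11, and its highest in CT0 mouse 1, whereas the Pcdhac1 probe was highest in CT0 mouse 3. A clone described as Pcdhgb1 was above background on 1 array, and its values were between -7.61 and -4.74.

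The dim members moved together in CT0 mouse 3. Over the 10 dimmest tested members, all 10 read higher there than the mean of the other 11 arrays, by a median of 0.54. The deviations included 0.97 for Pcdhb19, 0.83 for Pcdhgc5 and 0.82 for Pcdhb2. That array had the highest share of spots above background, and the part of this in the members' values was not tested. Without it, the members whose CT6 values all lay above those of CT0 numbered 3, against 0 with it, at 11.4% and 5.72% of all probes.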
